A study of Saccharomyces cerevisiae with 3 samples.

Results

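The late step of a rapamycin time course was followed in Saccharomyces cerevisiae, from 30 to 120 min of treatment, over every array feature with a value at both times. Of 6399 features in the table, 6278 had such a pair of values and 121 did not. All cells carried myc-tagged Maf1 and were grown in rich medium (YPD) to an optical density of 0.6. Rapamycin was given at 0.2 ng/ul for 30 min or for 120 min, and an untreated culture gave a further column, which is printed beside the values and enters no difference. Crosslinked chromatin was depleted of Maf1 with antibodies against the tag, and its DNA was hybridized in Cy5 against Cy3-labelled DNA of the input chromatin on intergenic microarrays. The labels name no strain.

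Maf1, conserved from yeast to humans, represses RNA polymerase III (Pol III), the enzyme that makes tRNAs, 5S ribosomal RNA, the U6 spliceosomal RNA and a few other small RNAs. When nutrients are short or the TOR kinase is inhibited by rapamycin, Maf1 loses phosphate groups, gathers in the nucleus and binds Pol III. Pol III is brought to most of its genes by TFIIIC, which binds boxes inside the gene, and by TFIIIB, which TFIIIC places just upstream of the start.

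Each condition is 1 deposited column, the authors' mean of 3 arrays, so no spread between replicates could be had, no p-value is given, and the number of arrays limits the precision. Scores are the deposited values minus the median of their column, and a change is the score at 120 min minus the score at 30 min, in score units. The log base and the fraction on top of the ratio are not stated, so a higher score is not read as more or less Maf1, and with the sign turned every "higher" below reads "lower". The robust SD of the scores, taken from the median absolute deviation, was 0.388 without drug, 0.442 at 30 min and 0.512 at 120 min, so the column at 120 min was the wider of the pair compared. Over all 6278 features the median change was 0.07, with 56.9% of features above 0 and 43.1% below. A change of at least 1 score unit is called a far change here. Of all features, 302 were far higher (4.81%) and 232 far lower (3.7%). After quantile normalization, which gives both columns the same distribution of values, these counts were 129 and 238.

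Features that carry the name of a tRNA gene scored higher at 120 min than at 30 min almost throughout. Their median change was 0.87 over 245 features, against 0.07 over all features, and 236 of 245 (96.3%) lay above 0 where the background is 56.9%. Far higher were 90 of them (36.7%) against 4.81% of all features, and none of the 245 was far lower, against 3.7%. The tRNA-named scores had a median of 0.76 without drug, 0.62 at 30 min and 1.46 at 120 min. A score of 1 or more was reached by 64 of these features without drug, by 24 after 30 min and by 195 after 120 min. The score at 120 min was the highest of the 3 columns in 231 of 245 features, and the score at 30 min was the lowest in 159. These values depend on how the columns are scaled to each other. With the spread made equal the median change was 0.73 with 94.3% above 0. After quantile normalization it was 0.23 with 68.2% above 0, 5 features far higher and 1 far lower.

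**Figure D1:**
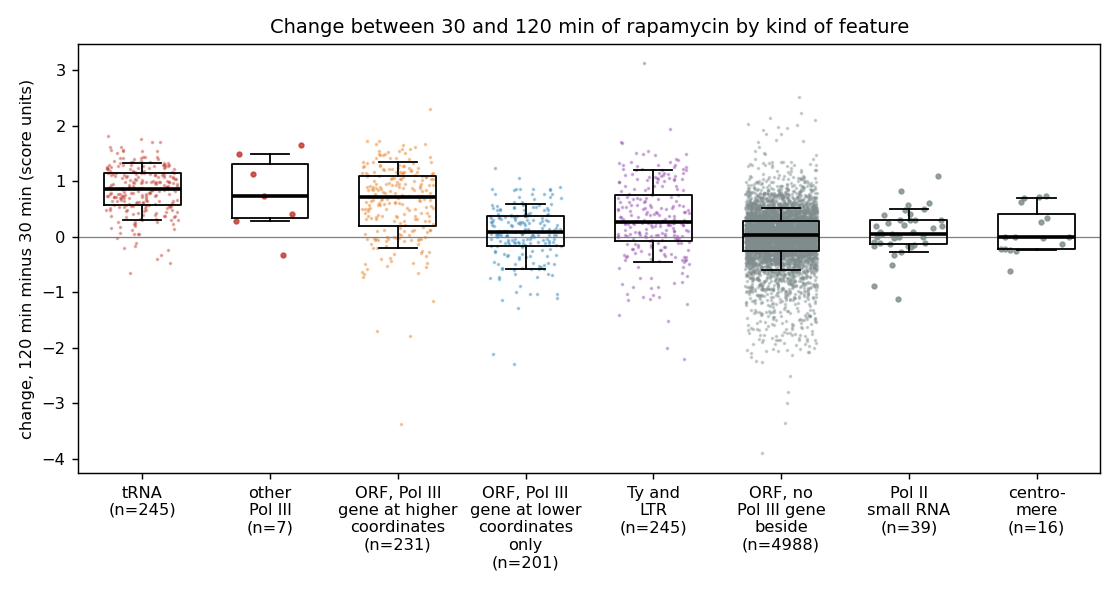
Change from 30 to 120 min of rapamycin (score units, vertical axis) for each feature, by kind of feature. Points are features, boxes span the quartiles with a line at the median, and whiskers reach the 10th and 90th percentiles. The tRNA-named features and the ORF-named features with a Pol III gene next at higher coordinates sit high, with medians of 0.87 and 0.72, while ORF-named features with other genes on both sides centre on 0.03.

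The tRNA-named feature that changed most was that of tI(AAU)N1, an isoleucine tRNA gene, which began at 0.72 without drug, stood at 0.53 after 30 min and reached 2.35 after 120 min, a change of 1.82. The feature of the tyrosine tRNA gene tY(GUA)D followed with 0.78, -0.04 and 1.71, a change of 1.76. That of the glycine tRNA gene tG(GCC)P2 stood at 0.85, 0.03 and 1.75, a change of 1.71. Both of the latter had dropped to the column median at 30 min. The feature of the serine tRNA gene tS(AGA)G, in contrast, was high in all 3 columns, at 1.20, 0.79 and 2.50, and also changed by 1.71. The next were the alanine gene tA(UGC)A, the threonine gene tT(UGU)G1, the aspartate gene tD(GUC)J2, the feature numbered 0 of the glutamate gene tE(CUC)D, the glutamine gene tQ(UUG)D2 and the histidine gene tH(GUG)K, with changes between 1.54 and 1.61. At 120 min these 6 stood between 1.81 and 2.41.

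Among the features that went against the others, tV(AAC)E1, a valine tRNA gene, had the lowest change, -0.66. Its 3 scores, in order of treatment time, were -0.32, 1.47 and 0.82, so it was low without drug, high at 30 min and below the tRNA-named median at 120 min. The feature of tQ(UUG)B, for a glutamine tRNA, stood at -0.75, 0.20 and -0.21, a change of -0.40. The remaining members of the lowest 5 were the features numbered 1 of tP(UGG)L, tW(CCA)K and tS(UGA)E, with -0.48, -0.33 and -0.23, for tRNAs of proline, tryptophan and serine. Each of them shares its name with a feature numbered 0 that changed by 0.57, 0.57 and 0.71.

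The change was spread over the whole set of tRNAs. The median was above 0 for each of the 20 amino acids and for each of the 40 anticodons measured. It ran from 0.64 for proline (12 features) and 0.72 for phenylalanine (10) to 1.13 for glutamine (10) and 1.29 for histidine (6). These classes overlapped widely. The 10 glutamine features ranged from -0.40 to 1.55, and the 12 proline features from -0.48 to 1.30. Arginine was the most even of the larger classes, with 15 features between 0.64 and 1.19. Genes for the same tRNA differed about as much as genes for different ones. The SD of the change was 0.43 over all tRNA-named features and 0.44 within anticodons.

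**Figure D2:**
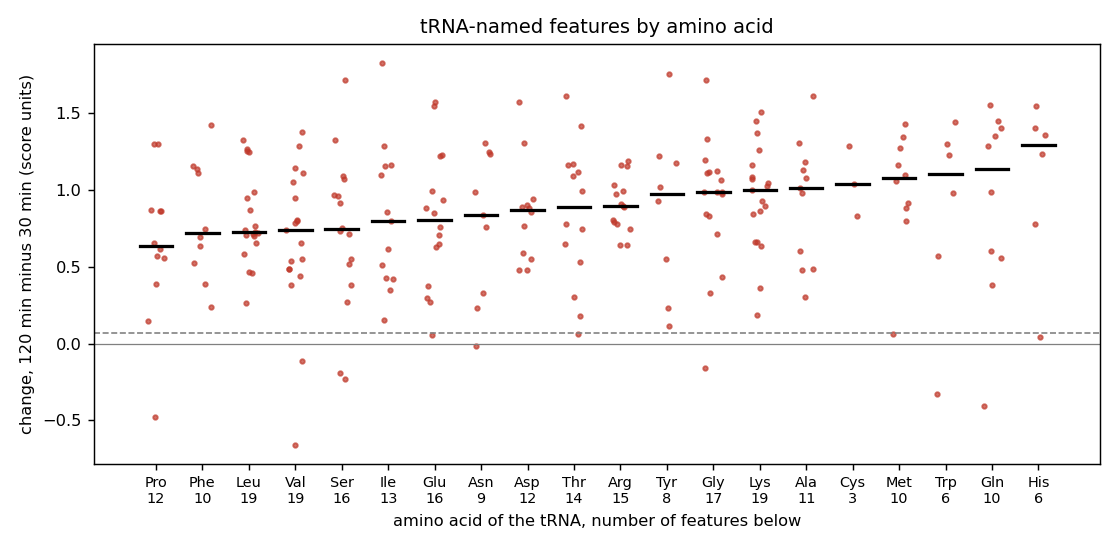
Change from 30 to 120 min (score units, vertical axis) of the 245 tRNA-named features by amino acid. Points are features, black lines are medians, the solid grey line is 0 and the dashed grey line is the median of all features, 0.07. Every median is above 0, from 0.64 for proline to 1.29 for histidine, and the points of the amino acids overlap.

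Among tRNA-named features the change differed little with the score at 30 min. With the tRNA-named features divided by that score into 4 groups of like size, the lowest group had median scores of 0.18 at 30 min and 0.96 at 120 min, and the highest had 0.96 and 1.84. The median changes of the 4 groups, from lowest to highest, were 0.83, 0.86, 0.97 and 0.88. The score at 30 min enters both the grouping and the change, so this is a description only.

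**Figure D3:**
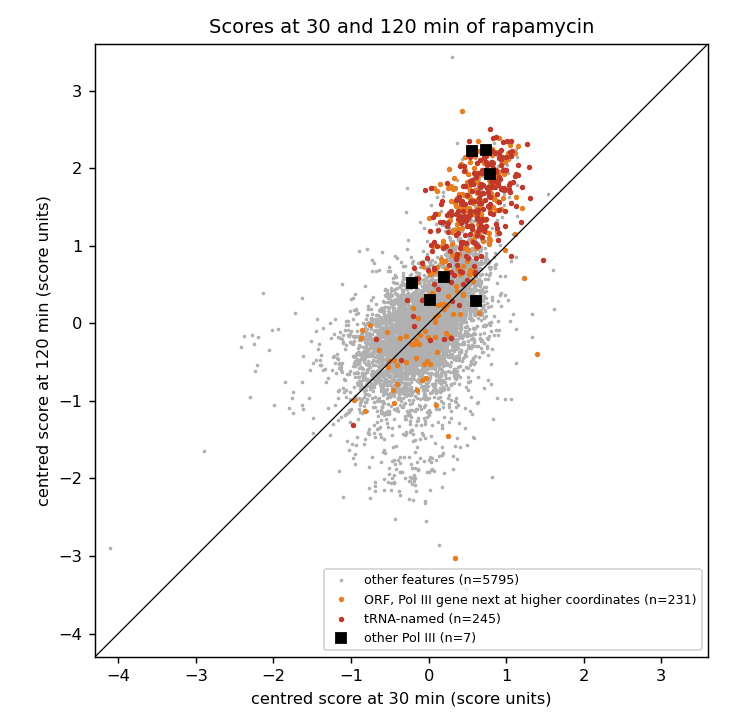
Centred score at 30 min (horizontal axis) against 120 min (vertical axis), both in score units, for all 6278 features, with the line of equal scores. Above the line lie 236 of 245 tRNA-named features and 187 of 231 ORF-named features that precede a Pol III gene. Their scores reach 2.74 at 120 min. A group of other features lies near 0 at 30 min and well below -1 at 120 min.

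The 7 features of other Pol III genes ranged from changes above the tRNA-named upper quartile of 1.15 to a change below 0. SCR1, whose RNA is the scaffold of the signal recognition particle, stood at 0.76, 0.56 and 2.22 without drug, after 30 min and after 120 min, a change of 1.66. RPR1, the RNA of RNase P, which trims the leader of tRNA precursors, stood at 0.85, 0.74 and 2.23, a change of 1.49. SNR6, the U6 gene, had already moved at 30 min, with 0.09, 0.79 and 1.92, and changed by a further 1.14. These 3 features, of 7 in the group, were far higher, against 4.81% of all features. With equal spread 2 of the 7 were far higher (3.66% of all features), and after quantile normalization 0 (2.05% of all). The median change of the 7 was 0.73 in the setting reported and 0.31 after quantile normalization. SNR52, which makes a small nucleolar RNA, stood at 0.16, 0.62 and 0.29, and its change was -0.33.

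The features of the 5S ribosomal RNA genes were lower at 120 min than those of SCR1, RPR1 and SNR6. The change of RDN5-1 lay within the tRNA-named quartiles of 0.57 and 1.15, and those of RDN5-2 and RDN5-3 below them. RDN5-1 stood at 0.09, -0.21 and 0.52, RDN5-2 at 0.34, 0.19 and 0.60, and RDN5-3 at 0.09, 0.01 and 0.30, with changes of 0.73, 0.41 and 0.29. ORF-named features that precede a 5S gene behaved otherwise. YLR159W, before RDN5-5, stood at 0.70, 0.27 and 1.76, and YLR161W, before RDN5-6, at 0.73, 0.42 and 1.66, with changes of 1.49 and 1.24. The 5S genes and the stretches around these copies are repeated and near-identical, so DNA of one copy can hybridize to the features of another. The feature of RDN37-1, transcribed by RNA polymerase I, had no value at 30 or 120 min.

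Features named for open reading frames (ORFs) were placed by gene order, because the side of the ORF that a feature covers is not described. A change appeared where the next gene at higher coordinates was a Pol III gene. The median change of these 231 features was 0.72, from a median score of 0.45 at 30 min to 1.22 at 120 min, and 73 of them were far higher (31.6%, against 4.81% of all features). With equal spread the median was 0.60 and 46 were far higher. After quantile normalization the median was 0.16 and 9 were far higher (3.9%, against 2.05% of all features). With the Pol III gene 2 genes away on that side the median was 0.04 over 217 features, and at 3, 4 and 5 genes it was 0.04, 0.02 and -0.04. With a Pol III gene next at lower coordinates only, the median was 0.09 over 201 features, and 2 were far higher (0.995%). The 4988 ORF-named features with other genes on both sides, called distant ORF features here, had a median of 0.03, and 74 were far higher (1.48%).

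**Figure D4:**
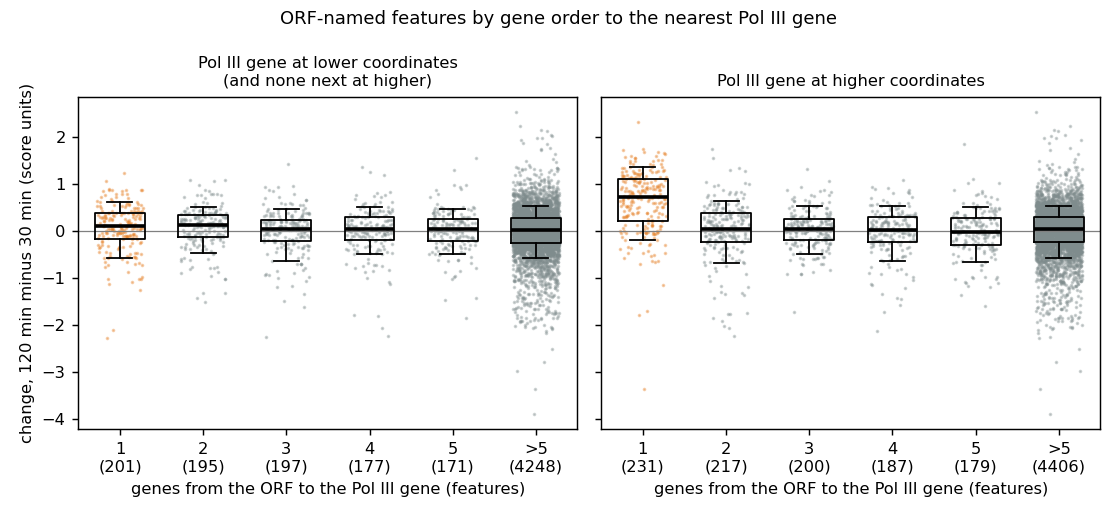
Change from 30 to 120 min (score units, vertical axis) of ORF-named features by the number of genes from the ORF to the nearest Pol III gene, at lower coordinates (left) and at higher coordinates (right). Boxes span the quartiles with a line at the median, whiskers reach the 10th and 90th percentiles, and numbers in parentheses count features. The median is 0.72 where the Pol III gene is next at higher coordinates and between -0.04 and 0.12 in every other box.

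Stretches covered by several numbered features could be read at closer range. Among tRNA-named stretches with a lowest and a highest number measured, the lowest number had the higher change in 6 of 6, with medians of 0.64 and -0.17. For tE(CUC)D the feature numbered 0 went from 0.24 at 30 min to 1.81 at 120 min, and the feature numbered 1 from -0.20 to 0.095. For tV(AAC)K1 the same pair went from 0.97 to 1.71 and from -0.36 to -0.47. On ORF-named stretches with a Pol III gene next at higher coordinates the order was turned. There the highest number had the higher change in 8 of 11 and the higher score at 120 min in 10 of 11. The feature of YDL211C numbered 2 went from 0.54 to 2.08, while those numbered 0 and 1 went from 0.24 to 0.23 and from -0.44 to -1.03. At HEM2, which encodes a heme synthesis enzyme, the feature numbered 1 went from 0.67 to 1.54 and that numbered 0 from 0.40 to 0.12. TYE7, a glycolytic regulator gene, went the other way, with changes of 0.69 at number 0 and -0.64 at number 1, as did PSA1 and ASE1. Other ORF-named stretches also had the highest number higher more often than not, in 92 of 169 for distant ORF features, in 4 of 6 with a Pol III gene at lower coordinates only and in 9 of 11 for ORFs not in the gene table. In these groups the highest number had the higher score at 120 min in 90 of 169, 4 of 6 and 7 of 11, respectively. The order of the changes is thus not shown to be particular to stretches with a Pol III gene next at higher coordinates. Features of 1 name share a stretch of chromosome, so these counts are over stretches.

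**Figure D5:**
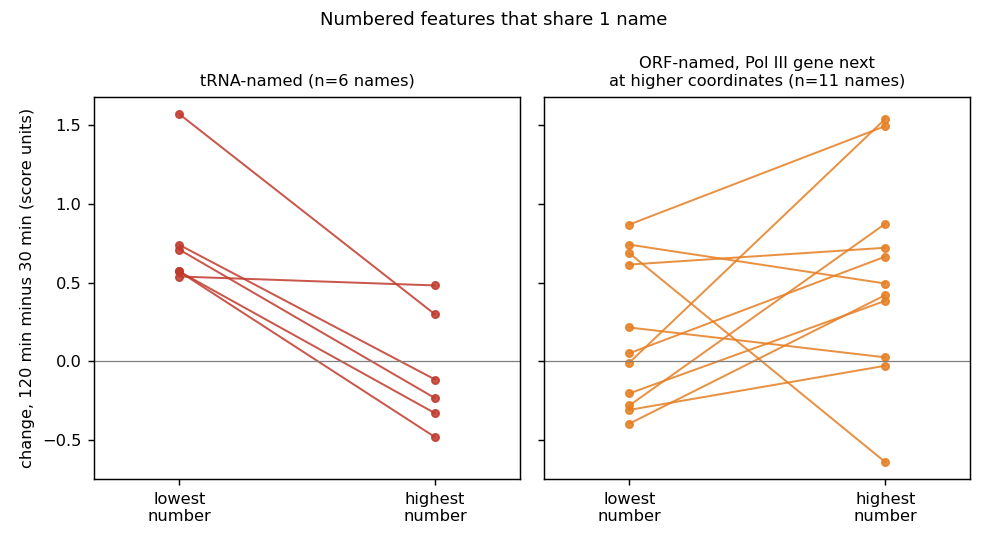
Change from 30 to 120 min (score units, vertical axis) of the lowest-numbered and the highest-numbered feature of 1 name, joined by a line. On the left, for 6 tRNA-named stretches, every line falls. On the right, for 11 ORF-named stretches with a Pol III gene next at higher coordinates, 8 lines rise and 3 fall.

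The end of the tRNA gene that faces the ORF went with the size of the change. Where the 3′ end faced the ORF the median change was 0.89 over 115 features, with 109 above 0 (94.8%) and 43 far higher (37.4%). Where the 5′ end faced it the median was 0.49 over 112 features, with 76 above 0 (67.9%) and 28 far higher, against 56.9% and 4.81% of all features. After quantile normalization these medians were 0.34 and 0.06. Facing the 3′ end, ORFs on the Watson and the Crick strand gave medians of 0.84 and 0.92, and facing the 5′ end 0.28 and 0.69. Ty elements are known to insert upstream of tRNA genes, and the gene table used for the order lists no LTRs. A stretch that ends at an LTR instead of the tRNA gene can therefore not be told apart from one that reaches it.

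Among ORF-named features beside a Pol III gene the highest change was at YNL035C, an ORF without a gene name that lies between a pair of Pol III genes, with 0.89 before treatment, 0.43 after 30 min and 2.74 after 120 min, a change of 2.31. TCM62, a mitochondrial chaperone gene, stood at 0.79, 0.27 and 1.99, and MIM1, of protein import into the mitochondrial outer membrane, at 1.02, 0.63 and 2.35. RAD30, a translesion DNA polymerase gene, and GLC7, a protein phosphatase gene, rounded off the highest 5 with changes of 1.68 and 1.67. All of these had scores of at least 0.73 in untreated cells and dipped at 30 min. The score at 30 min enters the ranking, so the dip is a description only. The lowest was at REX3, an RNA exonuclease gene whose next gene at higher coordinates is SNR6. REX3 stood at -0.39, 0.34 and -3.03, a change of -3.37, while the feature named SNR6 changed by 1.14. KRE33 and DAK1, each with a Pol III gene at lower coordinates, went from 0.17 to -2.11 and from 0.36 to -1.75.

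Features of Ty elements and their long terminal repeats (LTRs) had a median change of 0.26 over 245 features, with 175 above 0 (71.4%, against 56.9% of all) and 46 far higher (18.8%, against 4.81%). With equal spread 29 were far higher, where the share over all features was 3.66%. After quantile normalization the median was 0.04 and 11 were far higher, where that share was 2.05%. Most were delta elements, the LTRs of Ty1 and Ty2, which insert near Pol III genes, with a median of 0.26 over 200 features. The 13 sigma features, LTRs of Ty3, which inserts at the start sites of Pol III genes, had a median of 0.43, and 11 of them lay above 0. The 21 tau features, LTRs of Ty4, had 0.31. The 10 omega features, LTRs of Ty5, which inserts into silent chromatin, had -0.05 with 5 of 10 below 0 (43.1% of all features), and none was far higher.

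Most far higher LTR features were already high before treatment, and most far lower ones were not. In the scaling reported, of 86 with an untreated score above 0.5, 37 were far higher (43.0%, against 4.81% of all features). The median change of the 86 was 0.87. Of the 87 between 0 and 0.5, 5 were far higher (5.75%) and the median was 0.20. Of the 72 at or below 0, 4 were far higher (5.56%) and the median was 0.03. Both shares were near that of all features. Of the 11 far lower, 7 were among those at or below 0 (9.72% of that group, against 3.7% of all features), and 2 in each of the other groups. The highest change of all 6278 features was at YDRWdelta25, with 0.90, 0.30 and 3.43, a change of 3.13. YLRCdelta8 went from 0.26 to 1.98, YERCdelta15 from 0.43 to 2.12 and YDRWdelta26 from 0.59 to 2.13. YDRWdelta30 was of another kind, with -0.24, -1.63 and 0.32, so that it was low at 30 min and near the median at 120 min. The lowest were YOLCdelta1, which went from 0.31 to -1.88, YOLCdelta2, from 0.40 to -1.59, and the feature of YARCdelta8 numbered 2, from 0.18 to -1.35. The neighbours of LTR features were not looked up, so those beside a Pol III gene are not separated from the others.

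In the scaling reported, far higher and far lower features were mostly of different kinds. Of the 302 far higher, 212 (70.2%) were named for a Pol III gene, a Ty element or LTR, or an ORF with a Pol III gene next at higher coordinates, kinds that made up 11.6% of all features. With equal spread these kinds made up 134 of 230 far higher features (58.3%). After quantile normalization they made up 25 of 129 (19.4%, against 11.6% of all features). Of the 129, 91 (70.5%) were distant ORF features, which made up 4988 of all 6278 features. The make-up of the far higher features thus rests on the scaling. Of the 232 far lower, 15 (6.47%) were of the Pol III, LTR and neighbour kinds above and 200 (86.2%) were distant ORF features. The 90 tRNA-named and the 73 ORF-named features beside Pol III genes had median scores of 0.63 and 0.54 at 30 min. All of them reached a score of at least 1 at 120 min. A far higher feature with a score of 0 or more at 30 min must do so, and this is therefore no separate result. The 74 far higher distant ORF features had lower scores at 30 min. Their median scores were -0.31, -0.86 and 0.38 in the 3 columns, 29 had stood at -1 or below at 30 min, and 17 reached 1 at 120 min.

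The 10 highest changes of all features show this mix. At 6 of them the score at 30 min was below -2 and the other columns were near the median. These 6 all lie on chromosomes II to VI. CYC7, a cytochrome c gene, stood at -0.39, -2.13 and 0.39, a change of 2.53. MRP20, a mitochondrial ribosomal protein gene, stood at -0.36, -2.39 and -0.16, and THI5, of thiamine synthesis, at -0.33, -2.41 and -0.30. NCB2, of a transcriptional regulator of Pol II, SPR6, a gene expressed in sporulation, and SCO1, of copper delivery to cytochrome oxidase, changed by 2.14, 2.02 and 1.98 in the same way. The other 4 stood above 1 at 120 min. They were YDRWdelta25 and YNL035C, described above, KTR1, a mannosyltransferase gene, with 0.33, -0.28 and 1.75, and YDC1, a ceramidase gene, with 0.60, 0.36 and 2.32. Neither KTR1 nor YDC1 has a Pol III gene beside it.

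The 10 lowest changes had low scores at 120 min, which enter the ranking. All 10 had scores below -1.8 there, and all 10 had untreated scores within 1 of the median. All 10 also lie on chromosomes X to XV. Far changes were unevenly spread over the chromosomes, as given under other observations, and why was not tested. DCN1, of protein neddylation, stood at -0.42, 0.48 and -3.42, a change of -3.90. OSH6, an oxysterol-binding protein homologue, stood at 0.07, 0.08 and -3.28, and PRE8, a proteasome subunit gene, at -0.04, 0.13 and -2.86. PRP2, MSL5 and ISY1, whose products act in splicing, changed by -2.80, -2.26 and -2.24. CPA1, of arginine synthesis, and KRE33, an RNA acetyltransferase gene, changed by -2.51 and -2.28. REX3 and YOLCdelta1, given above, complete the 10. Among all 200 far lower distant ORF features, 143 stood at -1 or below at 120 min, with a median of -1.40. A far lower feature with a score of 0 or less at 30 min must do so, and this is therefore no separate result.

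The genes that encode the Pol III machinery and its regulators showed no common change. These are protein genes, and their features report the stretch beside each gene, not the protein. Of 17 features for Pol III subunits, 9 lay above 0 (52.9%, against 56.9% of all features) and none was a far change, with a median of 0.02. RPB5, a subunit shared with the other polymerases, changed by 0.84 and RPC37 by 0.59, while RPC25 and RPC53 changed by -0.61 and -0.57. Of 9 features for TFIIIA, TFIIIB and TFIIIC, 3 lay above 0 (33.3%, against 56.9% of all) and none was a far change (4.81% higher and 3.7% lower of all), with a median of -0.14. TFC3 and TFC7, subunits of TFIIIC, changed by -0.99 and -0.89. TFC6, a TFIIIC subunit whose own promoter is known to bind TFIIIC, stood at 0.12, 0.29 and 0.52, a change of 0.23. SPT15, the TATA-binding protein shared by all 3 polymerases, changed by 0.09.

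Of 40 features for TOR, Sch9, protein kinase A, casein kinase and phosphatase genes and genes linked to them, 23 lay above 0. This was 57.5%, near the 56.9% of all features. None of the 40 was a far change, and their median was 0.03. NPR1, a kinase gene under TOR, stood at 1.94, -0.02 and 0.90, and TCO89, a TOR complex subunit gene, at -0.33, -0.98 and -0.17, with changes of 0.91 and 0.81. CDC55 and PPH21, subunits of a phosphatase, changed by -0.66 and -0.64. MAF1's own feature had scores of -0.37, 0.33 and 0.03, a change of -0.30.

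Protein genes whose expression answers to rapamycin or to tRNA supply also lay near the median of all features. The 128 features of cytosolic ribosomal protein genes split evenly, 64 above 0 and 64 below (56.9% and 43.1% of all features), with 1 far higher and 7 far lower (5.47%, against 3.7% of all). RPL12A and RPL25 changed by 1.35 and 0.88, RPL15A and RPS16A by -1.97 and -1.63. The 64 features of ribosome biogenesis genes had a median of 0.03, with RPA135, which has a tRNA gene next at higher coordinates, at 1.18, BRX1 at 0.86, and RLP24 and DRS1 at -1.93 and -1.79. The 16 features of aminoacyl-tRNA synthetase genes, which charge tRNAs, had a median of 0.11, from -0.87 at THS1 and -0.54 at DPS1 to 0.96 at DED81 and 1.08 at GUS1. The 31 features of genes for tRNA processing, modification and export had a median of -0.09, and 13 lay above 0 (41.9%, against 56.9% of all) and 18 below. In that list 2 were far lower (6.45%, against 3.7%). These were PUS1, a pseudouridine synthase gene, at -1.90 and GCD10, a tRNA methyltransferase subunit gene, at -1.43, while TRM7 and RPR2 changed by 0.67 and 0.49.

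Of the 39 features of Msn2 and Msn4 stress genes, 3 have a Pol III gene next at higher coordinates. These 39 features had a median of 0.02, with 5 far higher (12.8%, against 4.81%) and 1 far lower. CYC7 headed them through its low score at 30 min, followed by GSY1, a glycogen synthase gene, which went from -0.73 to 0.82, while GPP2 and GPD1, of glycerol synthesis, changed by -1.59 and -0.89. Genes under nitrogen catabolite repression had a median of -0.03 over 36 features. PUT1, of proline use, which has a tRNA gene next at higher coordinates, stood at 1.60, 1.03 and 2.17 and PTR2 changed by 0.78, while the permease genes DIP5 and UGA4 changed by -1.20 and -1.14. Genes of Gcn4 and amino acid synthesis had a median of 0.11 over 54 features, with ARO1 and LEU2 at 0.91 and 0.72 and CPA1 and ARG8 at -2.51 and -1.86.

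The 21 features of glycolytic enzyme genes had a median of 0.01. Far lower were 2 (9.52%, against 3.7% of all features), PDC5 and CDC19 at -1.25 and -1.02, and none was far higher. The feature of HXK1 numbered 2 changed by 0.82 and that numbered 0 by 0.48, and ENO1 changed by 0.50. The 11 features of histone genes had a median of 0.11, from -0.42 at HHF1 and -0.33 at HHT1 to 0.59 at HHO1 and 0.79 at HTA2. Short non-coding genes that RNA polymerase II transcribes, for small nuclear and small nucleolar RNAs, had a median of 0.05 over 39 features, and 1 was far higher and 1 far lower (2.56% each, against 4.81% and 3.7%). SNR53 went from 0.45 to 1.54 and SNR45 changed by 0.83, while SNR42 and SNR69 changed by -1.11 and -0.89. The 16 centromere features had a median of -0.01, between -0.61 at CEN4 and 0.74 at CEN2, and no far change. Those of CEN11 and CEN13 changed by -0.26 and 0.71.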

How the data were processed

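The deposited score of each feature is, per the labels, the authors' mean of 3 replicate 2-colour arrays after normalization to a gene list. Members of that list, background correction, spot filters, log base, direction of the ratio and array build are not given in these sources, and a wider column gives larger changes. Replicate arrays were not used here, and 0 columns of values remained unmapped.

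Each column was centred on its median and changes were differences of centred scores, with Python 3.11.15, pandas 2.3.3 and numpy 2.4.6. Lists are described by counts and medians beside all features. No test was made. Alternatives were other centrings, equal spread, quantile normalization, other limits of a far change and other neighbour rules. The procedure was tested on simulated data with shifted features.

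The identifiers write the letter I as i, and kinds were read from them. The 6399 features hold 250 with tRNA names, 249 with Ty or LTR names, 5806 with ORF names and 7 of further Pol III genes, of which 245, 245, 5698 and 7 had a change. Gene order and symbols came from RefSeq's genes of assembly R64, where entries were found for 5525 ORF-named features. Coordinates from it were used only to order the genes along each chromosome. The comparison, members, lists and limits were chosen with earlier results of these data known, and the classes by facing tRNA end and by feature number after seeing the values.

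Named features are the 10 highest and 10 lowest changes, the 10 highest and 5 lowest tRNA-named, the 5 highest and 3 lowest Ty or LTR features and ORF-named features beside a Pol III gene, every other Pol III gene, the 2 highest and 2 lowest of each list, and MAF1, all with 3 values. Numbered stretches, neighbours of 5S genes and TFC6 were named after their values were seen. Sequences and promoters were not used here.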

Additional observations from a re-analysis of the deposited data

How the results depend on the processing

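With 1 averaged column per condition, no value has a replicate check, replicates could not be left out, and signal over background is unknown. No paired analysis was possible because each condition has 1 column. Equal spread gave a tRNA median change of 0.73, and quantile normalization one of 0.23 with 68.2% above 0. Quantile normalization also gave medians of 0.044 for Ty and LTR features, 0.10 for ORF-named features with a Pol III gene on either side (0.35 in the setting reported) and 0.010 for those with none beside them, and 129 far higher features. Counting a Pol III neighbour at higher coordinates only gave 0.72, and at lower coordinates only 0.091. The median of distant ORF features turned to -0.0082 without centring, and was 0.046 when centred on these features and 0.015 with each chromosome centred separately. At a limit of 0.5, 3 robust SDs (1.28) and 1.5 score units, 1076, 127 and 53 features were higher and 715, 136 and 92 lower. The cause of these differences was not tested. The other 48 of 66 values recomputed for these results differed by less than the interval or 1.5-fold limit used to judge them.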

Other observations

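Far changes of distant ORF features, those with no Pol III gene on either side, were unevenly spread over the chromosomes. On chromosomes I to VI, 2.82% of 1526 such features were far higher and 1.31% far lower. On VII to X the shares were 1.28% and 3.75% of 1172, and on XI to XVI 0.699% and 5.94% of 2290. By chromosome the far lower share ran from 0 of 111 features on VI and 0.429% on V to 9.59% on XII, 7.83% on XIII and 7.02% on XI. The far higher share was 5.58% on V and 5.41% on VI, and 0 on III, IX and XI. Scores of -1 or below at 30 min made up 4.65% of these features on I to VI and 0.742% on XI to XVI, and at 120 min 2.69% and 6.51%. In untreated cells the same shares were 2.95% and 1.48%. The tRNA-named features had median changes of 0.93, 0.88 and 0.80 in these 3 blocks of chromosomes, and ORF-named features with a Pol III gene next at higher coordinates 0.84, 0.68 and 0.65. Why the chromosomes differ was not tested.

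The 27 measured features whose identifiers start with iNT, a prefix not explained in the sources used here, had a median change of 0.04, with 14 above 0 (51.9%, against 56.9% of all features). The 8 of them with mitochondrial names had 0.20 with 5 above 0 and no far change, between -0.22 and 0.59. The feature of TLC1, the telomerase RNA, changed by 0.44.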
